A study of Rattus norvegicus with 2 samples.

Results

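Autotaxin, the lysophosphatidic acid (LPA) receptors and the lipid phosphate phosphatases were examined in rat C6 glioma cells. The 9 genes are Enpp2, Lpar1, Lpar2, Lpar3, Lpar4, Lpar6, Plpp1, Plpp2 and Plpp3, of 18166 genes that the platform annotation names through a probe set with a single symbol. Each had 1 probe set, so they account for 9 of 36685 probe sets. The set was chosen by function with results of the same 2 arrays in view, among them the high value of Enpp2 in SMiG, so its log2 differences are a description and no test is attached to them. C6 is an established rat glioma line, here grown in serum-containing medium. Expression was measured on whole-transcript GeneChip arrays in a culture of undifferentiated cells (C6, 1 array) and in a culture that had received small molecules (SMiG, 1 array). The study asks whether small molecules turn these glioma cells into glia-like cells. For SMiG, the sample's labels list the adenylyl cyclase activator forskolin, the mTORC1 inhibitor rapamycin and the BET bromodomain inhibitor I-BET151. The protocol text, the same for both samples, instead gives the GSK3 inhibitor CHIR99021 at 20 µM with forskolin at 100 µM over 35 days. No choice between these descriptions was made, and no vehicle is named for the undifferentiated cells.

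LPA is a small signalling phospholipid. Outside cells it is made mainly by autotaxin, a secreted lysophospholipase D encoded by Enpp2, which cleaves the choline head group from lysophosphatidylcholine. LPA acts through G protein-coupled receptors of a pair of families, one related to the sphingosine 1-phosphate receptors (Lpar1, Lpar2, Lpar3) and one related to purine receptors (Lpar4, Lpar6). It is removed by membrane phosphatases of the PLPP family, whose active site faces outwards at the cell surface. In the brain, autotaxin is known from choroid plexus epithelium and from differentiating oligodendrocytes, and Lpar1 from oligodendrocytes and from progenitor cells of the developing cortex.

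Neither group had a replicate, so no p-value or error between cultures can be given, and the number of arrays limits the precision. Values are the deposited log2 values, and differences are SMiG minus C6 on that scale. The level of genes that should be silent in glioma cells was read from 1343 olfactory and vomeronasal receptor genes. The 95th percentile of their values, 4.84 in C6 and 4.96 in SMiG, served as the floor, and a gene above the floor on at least 1 array was called detected, as were 10932 genes. Where only the dimmer array is at or below its floor, the fold is given against the floor as a lower bound, written as at least that fold. The log2 differences of the silent genes spread with an SD of 0.32, and 0.819% of these genes (11) exceeded a 2-fold change. That spread was measured at low signal, between 1 culture of each kind, and is not a replicate error. Levels of different genes are not compared with each other, since they come from different probes. In bulk RNA, a change in the number of cells that express a gene and a change in RNA per cell cannot be told apart.

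Of the 9 genes, 7 were detected, 6 of them on both arrays. Enpp2 was the only detected gene of the 9 at least 2-fold higher in SMiG, and Lpar6 the only one at least 2-fold lower. Among all detected genes, the share past 2-fold was 3.19% on the higher side and 6.51% on the lower side, 9.71% in all. The remaining 5 detected genes lay within 2-fold, and the median difference of the 7 was −0.08, beside −0.0052 for all detected genes. By role, the gene for the LPA-producing enzyme was at least 2-fold higher. Of the 3 detected receptor genes, Lpar6 was at least 2-fold lower, and Lpar1 and Lpar2 lay within 2-fold. The 3 phosphatase genes also lay within 2-fold.

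**Figure D1:**
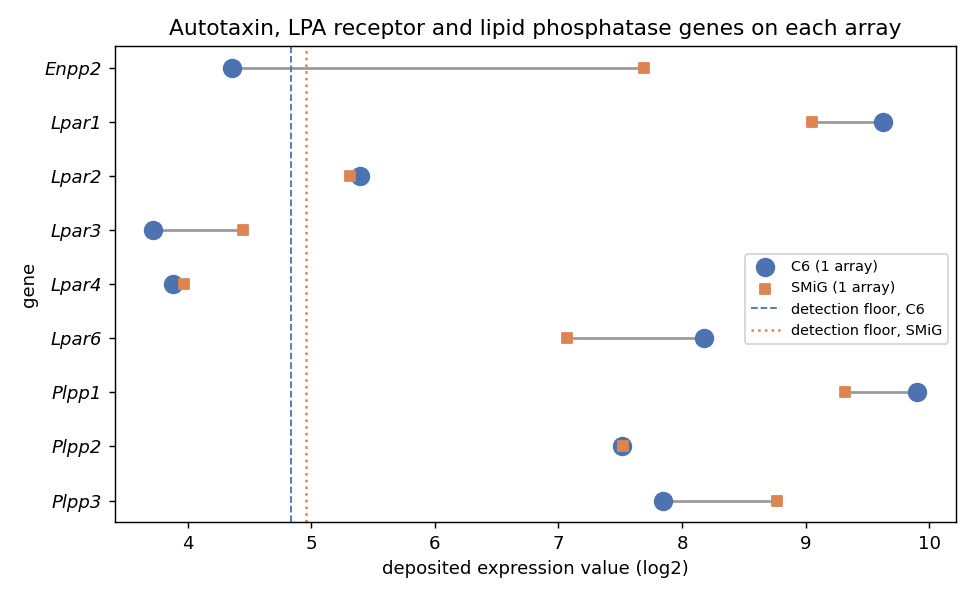
Deposited log2 values (horizontal axis) of the 9 genes (vertical axis) in C6 (circles) and SMiG (squares), 1 array each, with the detection floors of 4.84 (C6, dashed) and 4.96 (SMiG, dotted). Enpp2 crosses from below the floor in C6 to 7.69 in SMiG, Lpar3 and Lpar4 lie below the floor on both arrays, and Plpp1 and Plpp3 have differences of −0.59 and 0.92, both within 2-fold.

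Enpp2 (probe set 17837316) had a value of 4.36 in C6, which is 0.48 below the floor, and of 7.69 in SMiG, which is 2.73 above it. The C6 value was in the range of the silent genes and the SMiG value was well outside it. Because C6 lay below its floor, the difference is at least 7.21-fold; the measured difference of 3.33 on the log2 scale, or 10.1-fold, is not a bound and depends on a signal that cannot be told from background.

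The 5 receptor genes fell into 3 kinds of reading. Lpar1, whose product couples to several G protein families, was high above the floor on both arrays, at 9.62 in C6 and 9.05 in SMiG. Its difference was −0.57, or 1.49-fold, and 15.5% of detected genes had a difference at least as low. Lpar6, encoding a receptor that couples to G proteins of the G12 and G13 type, was at 8.18 in C6 and 7.07 in SMiG. It was 2.16-fold lower in SMiG, a difference of −1.11, and 5.21% of detected genes were at least as low. Of these, Lpar6 passed 2-fold and Lpar1 did not, and in SMiG they were still above the floor, Lpar1 by 4.09 and Lpar6 by 2.11. Lpar2 was close to the floor, at 5.39 in C6 and 5.32 in SMiG. Its difference of −0.08 was smaller than the SD of the silent genes.

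Lpar3 and Lpar4 were below the floor on both arrays. Lpar3 had values of 3.72 and 4.45 in C6 and SMiG. Its arithmetic difference of 0.73 therefore sets 2 background readings against each other and carries no direction. Lpar4 had values of 3.88 and 3.97. Transcripts of both genes were not detectable above background on these arrays, which does not show that they were absent. Among receptors outside the 9 genes, Lpar5 was also below the floor on both arrays, at 4.49 and 4.79. Of the other receptors for which LPA has been proposed as a ligand, P2ry10 was below the floor (3.20 and 2.98) and Gpr35 was just above it (5.43 and 5.12).

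The 3 phosphatase genes gave 3 different readings. Plpp1, encoding a broadly expressed phosphatase of the cell surface, was at 9.90 in C6 and 9.32 in SMiG. That is 1.501-fold lower in SMiG, a difference of −0.59. Plpp2 was at 7.51 in C6 and 7.52 in SMiG, and its difference of 0.01 was the smallest of the 9 genes. Plpp3, encoding a phosphatase that removes extracellular LPA and is required for vascular development in the mouse, was at 7.85 in C6 and 8.77 in SMiG. It was 1.90-fold higher in SMiG, a difference of 0.92, just inside the 2-fold threshold, and 4.07% of detected genes were at least as high. The differences of Plpp3 and Plpp1 were 1.51 apart on the log2 scale, with all 4 values at least 3.01 above the floor. Both genes were therefore measured well above background on both arrays, and neither passed 2-fold.

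**Figure D2:**
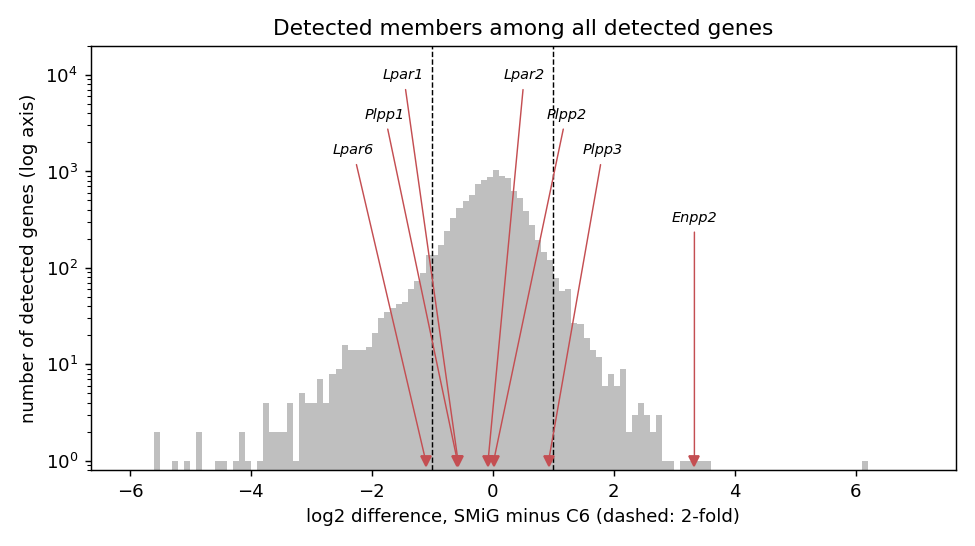
Log2 differences (SMiG minus C6, horizontal axis) of all 10932 detected genes as a histogram with a log count axis, with the 7 detected genes of the set marked by triangles and dashed lines at 2-fold. Enpp2 is plotted at its measured 3.33, of which at least 2.85 lies above the floor, Lpar6 and Plpp3 lie on either side near the 2-fold lines, and the other 4 lie nearer the centre.

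RefSeq promoter sequences (GRCr8, 250 bases before to 50 after the annotated start) matched 5 of the 9 genes: Lpar3, Lpar4, Lpar6, Plpp1 and Plpp3. Lpar6 and Plpp3 are shown because, of these 5, they had the largest differences among detected genes, in opposite directions. Lpar6 is the window chr15:54825860-54826159 on the plus strand and Plpp3 the window chr5:125155750-125156049 on the plus strand. Because the labels name forskolin, which raises cyclic AMP, the windows were searched on both strands for the core of the cyclic AMP response element, TGACG, and for the full element TGACGTCA, which contains that core on each strand. They were also searched for GGAATG, the core bound by TEAD factors, through which LPA receptors are known to act by way of YAP. Capitals mark matches to any of these.
Lpar6: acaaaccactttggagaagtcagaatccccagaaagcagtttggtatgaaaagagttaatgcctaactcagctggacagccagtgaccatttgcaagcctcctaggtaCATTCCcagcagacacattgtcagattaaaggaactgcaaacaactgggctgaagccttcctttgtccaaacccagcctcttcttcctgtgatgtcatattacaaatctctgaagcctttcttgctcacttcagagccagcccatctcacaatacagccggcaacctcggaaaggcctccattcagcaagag
Plpp3: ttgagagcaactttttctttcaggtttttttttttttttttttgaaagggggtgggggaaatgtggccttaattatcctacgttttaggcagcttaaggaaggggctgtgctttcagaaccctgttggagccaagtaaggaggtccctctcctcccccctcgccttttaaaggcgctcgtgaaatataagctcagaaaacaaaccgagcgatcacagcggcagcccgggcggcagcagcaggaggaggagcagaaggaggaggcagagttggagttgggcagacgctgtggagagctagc
The Lpar6 window held 1 TEAD core, on the minus strand, and no cyclic AMP element core, and the Plpp3 window held neither. The Plpp1 and Lpar4 windows likewise held no match. The Lpar3 window held 2 cyclic AMP element cores, but Lpar3 was below the floor on both arrays. Of 33469 RefSeq promoter windows of 300 bases, 21.2% held that core, 1.83% the full element and 14.2% the TEAD core. The match in Lpar6 is a description of letters and not a measured binding site. GC content was 47.3% for Lpar6, 51.3% for Plpp3 and 70.0% for Plpp1, against a median of 51.7% over all windows.

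Genes for relatives of autotaxin were also read. None of the 5 detected ENPP genes other than Enpp2, of 6 on the array, was at least 2-fold higher in SMiG, and 2 were at least 2-fold lower. Among all detected genes, 3.19% were that much higher and 6.51% that much lower. Enpp1, whose product makes pyrophosphate from extracellular ATP, was at 11.32 in C6 and 9.40 in SMiG, or 3.79-fold lower. Enpp3, encoding another ectoenzyme that cleaves nucleotides, was 2.92-fold lower, at 6.55 against 5.0004, the SMiG value being close to the floor. Enpp4 was at 6.78 and 6.93, Enpp5 at 6.91 and 6.65, and Enpp7, encoding an intestinal sphingomyelinase, near the floor at 4.89 and 5.26. Enpp6, a choline phosphodiesterase gene known from newly formed oligodendrocytes, was below the floor on both arrays at 3.36 and 3.52. The median of the 5 was −0.26.

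Other genes of the phosphatase family also lay on both sides. Of 9 on the array, 6 were detected, and 3 passed 2-fold, 1 of them higher and 2 lower in SMiG. The shares of all detected genes were 3.19% higher and 6.51% lower. Plppr5, encoding a phosphatase-related membrane protein of a group that lacks catalytic residues of the PLPP enzymes, was at 8.29 in C6 and 4.81 in SMiG. With SMiG below the floor, it was at least 10.1-fold lower. Plppr2, of the same group, was 2.40-fold higher, at 7.76 against 6.49. Plpp5 was 2.37-fold lower, at 6.74 against 7.98. Plpp6, whose product acts on isoprenoid diphosphates, was at 0.48, Plppr3 at 0.14 and Plpp7 at 0.02. Neither array gave a value above the floor for Plpp4, Plppr1 and Plppr4. The median of the 6 was 0.08.

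Other routes that make LPA or its precursor gave 10 detected genes of 16, with 1 past 2-fold, on the lower side, and a median of 0.13. On that side, 6.51% of all detected genes passed 2-fold. The lower one was Gpat3, encoding an acyltransferase that makes LPA inside the cell as a step of glycerolipid synthesis, at 6.56 in C6 and below the floor at 4.82 in SMiG. It was at least 3.02-fold lower. Gdpd1, encoding an intracellular lysophospholipase D, was at 0.95 and the mitochondrial acyltransferase gene Gpam at 0.86, whereas the lipid kinase gene Agk was at −0.52. Lipi, encoding a phospholipase that can make LPA from phosphatidic acid, was below the floor on both arrays, as were Pla1a and Gdpd3. Lcat, encoding a secreted acyltransferase that leaves lysophosphatidylcholine, the substrate of autotaxin, was at 7.73 in C6 and 8.21 in SMiG. Liph had no probe set with a single symbol.

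Genes for enzymes that acylate or hydrolyse LPA and other lysophospholipids were all detected, 14 on the array. Of these, 11 had a negative and 3 a positive difference, whereas 50.3% of all detected genes had a negative one. On the lower side, 4 passed 2-fold, beside 6.51% of all detected genes, and the other 10 lay within 2-fold. The median was −0.50. Agpat2, encoding an acyltransferase that turns LPA into phosphatidic acid, was 5.94-fold lower, at 8.87 in C6 and 6.30 in SMiG. Its relative Agpat4 was 2.54-fold lower, at 9.04 against 7.69. Lclat1, encoding a lysocardiolipin acyltransferase, was 2.67-fold lower and Lpcat4, for an acyltransferase of lysophospholipids, 2.08-fold lower. Agpat5 lay on the other side at 0.79, with Agpat1 at 0.41. Lpcat3 was at −0.56 and the lysophospholipase gene Lypla2 at −0.52.

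Effectors that LPA receptors are known to engage were detected in 15 of 16 cases, with 2 genes past 2-fold on each side and a median of −0.07. The shares of all detected genes were 3.19% on the higher side and 6.51% on the lower side. Gna11 and Gna12, encoding G protein alpha subunits of the Gq and G12 types, were 2.20-fold and 2.08-fold higher, Gna12 as the mean of 2 probe sets. Plcb1 and Plcb4, encoding phospholipase C isoforms activated by Gq, were 2.67-fold and 2.05-fold lower. Gna13 and Gnaq were both at −0.23, Gnai2 at 0.14, Rhoa at −0.21 and the kinase genes Rock1 and Rock2 at −0.07 and 0.04. Arhgef11 was at 0.63 and Arhgef12 at 0.30, genes for exchange factors that act downstream of G12 and G13, while Arhgef1 was at −0.47. Rhob was at 0.69.

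**Figure D3:**
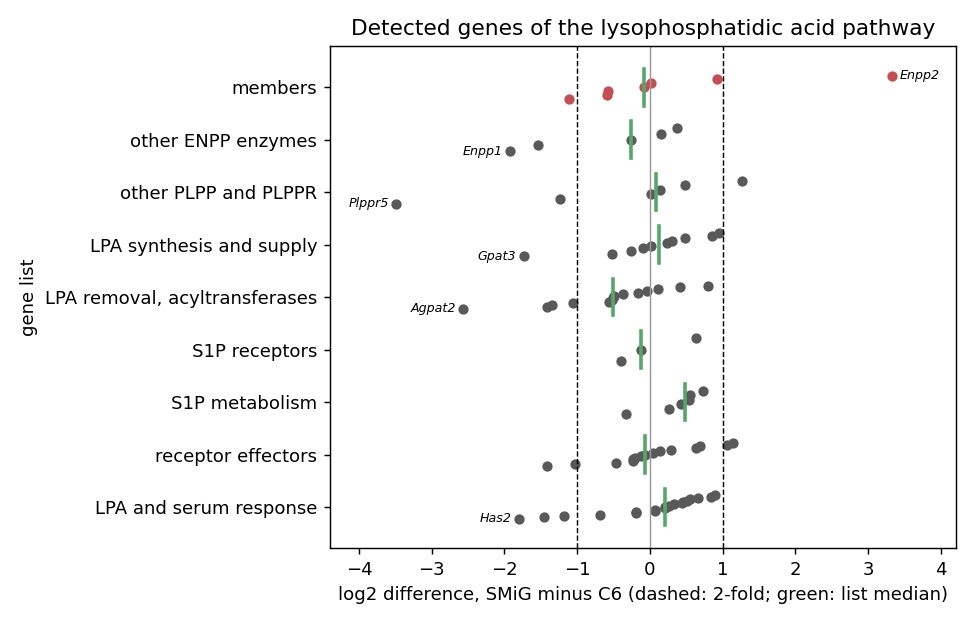
Log2 differences (SMiG minus C6, horizontal axis) of detected genes in the 9-gene set (red) and in lists of related genes (grey), 1 point per gene, with the list median in green, 2-fold as dashed lines and genes beyond 1.7 named. All genes are plotted at their measured differences, also those with 1 array below the floor, for which only bounds hold. These bounds are at least 7.21-fold for Enpp2, 10.1-fold for Plppr5, 3.02-fold for Gpat3, 1.33-fold for Il6, 1.39-fold for Mfsd2b and 1.08-fold for S1pr3. The list labelled LPA removal, which also holds genes for enzymes of other lysophospholipids, has its median at −0.50.

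Cell type markers were read beside Enpp2, because autotaxin is known from more than 1 brain cell type. Of 9 choroid plexus markers, 3 were detected and none was at least 2-fold higher in SMiG. Ttr, a defining marker of that epithelium, was near the floor at 4.95 and 5.19, Folr1 was at 5.07 and 4.97, and Aqp1 was 2.37-fold lower in SMiG. Kl, Kcnj13, Cldn2, Otx2, Clic6 and Prlr were below the floor on both arrays. Of 20 oligodendrocyte lineage markers on the array, Enpp2 not among them, 15 were detected, 12 above the floor in C6 and 15 in SMiG. Of the detected ones, 4 were higher and 1 was lower by at least 2-fold. Among all detected genes, those shares were 3.19% and 6.51%. By sign alone, 12 of the 15 had a positive and 3 a negative difference, whereas 50.3% of all detected genes had a negative one. Over all 20, detected or not, the mean value was 6.18 in C6 and 6.59 in SMiG. Fa2h, a fatty acid hydroxylase gene of myelin lipid synthesis, was 3.35-fold higher, Cnp 2.87-fold, the aspartoacylase gene Aspa 2.46-fold and the transcription factor gene Sox10 2.02-fold, and Pdgfra was 2.24-fold lower. Within 2-fold, Bcas1 was at 0.80 and Nkx2-2 at 0.65, whereas Myrf was at −0.38 and Olig1 at −0.20. The myelin protein genes Mbp, Mog and Mag were below the floor in C6 and at 4.996, 4.963 and 5.17 in SMiG, close to the floor, and Mobp, Ugt8, Opalin, Ermn and Gpr17 were below it on both arrays. The part of these markers in the Enpp2 difference was not tested.

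Markers of the other cell types were read in the same way. None of the detected neuron, microglia, endothelial and mural or fibroblast markers was at least 2-fold higher in SMiG, among 5, 4, 5 and 3 detected genes. The shares of all detected genes were 3.19% higher and 6.51% lower by at least 2-fold. At least 2-fold lower were Gad1, Pdgfrb, Flt1 and Col1a1. Of the astrocyte markers, 6 of 12 were detected, with Fgfr3 3.58-fold and S100b 2.30-fold higher and Gja1 4.92-fold and Ndrg2 3.08-fold lower. Aldoc was at 9.37 in C6 and 10.27 in SMiG, and Gfap at 6.04 and 5.48. Sox9, Slc1a3, Slc1a2, Aqp4, Fabp7 and Gjb6 were below the floor on both arrays, so 6 of the 12 astrocyte markers were not detectable in either culture.

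The detected genes whose pair of values was nearest to that of Enpp2 were found by Euclidean distance over the 2 arrays. They were Lifr (distance 0.25), Gpr37l1 (0.35), Prkcq (0.60), the microRNA precursor gene Mir503 (0.69) and Rps6ka2 (0.76). Lifr, encoding the leukemia inhibitory factor receptor, had values of 4.43 and 7.93, and Gpr37l1, an orphan receptor gene of glia, 4.68 and 7.56. The first 4 were below the floor in C6, as was Enpp2, so their C6 values have no order. The distances and their ranking therefore rest in part on background readings. A likeness over 2 arrays says only that the genes had similar values there.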

How the data were processed

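The authors' deposited table gives each probe set a value on each array, taken here to be log2 expression. No source used here states the log base; the highest value, 13.09, exceeds 11.09, which a natural log could reach at most on a 16-bit scanner. The authors' background correction, normalization and summarisation, not given in the sources used here, could change any fold. The column medians were 4.84 (C6) and 4.86 (SMiG), and no further scaling was applied. Per the labels' protocols, total RNA was extracted with Trizol and converted to biotin-labelled sense cDNA.

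Groups came from the sample titles. Genes were named from the platform annotation: 18511 probe sets had 1 symbol, 575 several and 17599 none, and only the first kind was used. Probe sets of 1 gene were averaged. The silent genes were those with symbols of the Olr, Or, Vom1r and Vom2r series. Counts use measured values and a log2 difference of 1. No test across samples was possible. The counting was tested on simulated data.

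The members and gene lists were chosen with earlier results of these data known. The text names all 9 members, the genes of the ENPP, PLPP, S1P receptor and other LPA receptor lists that had values, genes of the other lists past 2-fold with up to 3 more by size, and the 5 genes nearest Enpp2; further genes, such as Agpat1, Gna13, Gnaq, Gnai2, Rhoa, Rock1, Rock2 and Arhgef12 and markers near or below the floor, were named after their values were seen. Alternatives were other floors (99th percentile, none, low values set to the floor), median centring, a lowess trend (span 0.3), quantile normalization, the brightest probe set and other fold thresholds. Python 3.11.15, numpy 2.4.6, pandas 2.3.3, statsmodels 0.14.6 and matplotlib 3.10.9 were used.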

Additional observations from a re-analysis of the deposited data

How the results depend on the processing

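Enpp2 was the gene at least 2-fold higher and Lpar6 the gene at least 2-fold lower under each floor, each scaling and the brightest probe set. With a 1.5-fold threshold, 2 genes were higher (Enpp2 and Plpp3) and 2 lower (Lpar6 and Plpp1). Plpp1 at 1.501-fold is just past that threshold and Lpar1 at 1.49-fold just short of it. With a 3-fold threshold, 0 genes were lower and Enpp2 remained higher. With sub-floor values set to the floor, an alternative added for single genes after the data were seen, the Enpp2 difference was 2.85 in place of 3.33, by construction. Lpar3 and Lpar4 got no value there, since values at the floor have no order. Centring, lowess and quantile normalization moved the differences of the 9 genes by at most 0.0052, 0.095 and 0.053, each less than the silent genes' SD of 0.32. A floor at the silent genes' 99th percentile left 6 of the 9 genes detected, Lpar2 being lost. That floor, 5.91 in C6, would also make the bound for Enpp2 smaller. Each gene had 1 probe set, so averaging, the brightest probe set and each probe set alone gave the same differences. Signal over background limits what can be said of Lpar2, Lpar3 and Lpar4. No paired analysis was possible because there is 1 array per group.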

Other observations

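Sphingosine 1-phosphate (S1P), a relative of LPA, is also dephosphorylated by the PLPP enzymes, and its receptors belong to the family of Lpar1. Of the 5 S1P receptor genes, 3 were detected and none passed 2-fold, with a median difference of −0.12. Among all detected genes, 9.71% passed 2-fold in either direction and 50.3% had a negative difference. S1pr2 was at 7.55 in C6 and 7.43 in SMiG. S1pr3 was near the floor in C6 at 5.07 and below it in SMiG at 4.67, and S1pr5, known from oligodendrocytes, was at 4.96 and 5.60. S1pr1 and S1pr4 were below the floor on both arrays. Of the 7 genes of S1P metabolism and export, 6 were detected, 5 with a positive difference and none past 2-fold, and the median was 0.48. Sgpl1, encoding the lyase that degrades S1P, was at 0.55 and the phosphatase gene Sgpp1 at 0.53, whereas the kinase gene Sphk1 was at −0.33. Mfsd2b, an S1P exporter gene, was below the floor in C6 and at least 1.39-fold higher.

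Genes that LPA and serum commonly raise, through SRF or YAP, were on both sides. Of 20 on the array, 19 were detected, 13 with a positive and 6 with a negative difference, and the median was 0.21. Of all detected genes, 50.3% had a negative difference. None of the 19 was at least 2-fold higher and 3 were at least 2-fold lower, beside 3.19% and 6.51% of all detected genes. The hyaluronan synthase gene Has2 was 3.48-fold lower and the myosin light chain gene Myl9 2.73-fold lower. Il6 passed 2-fold lower by its measured values, but was below the floor in SMiG, and only a bound of at least 1.33-fold holds. The YAP target genes Amotl2, Ccn1 and Ccn2 were at 0.90, 0.65 and 0.34. Ankrd1, another YAP target gene, was at −0.20, with values near the floor of 5.19 in C6 and 4.99 in SMiG. The immediate early genes Fos and Egr1 were at 0.83 and 0.54. Flna, encoding the actin crosslinker filamin A, was at −0.69. Ccn1, Ccn2, Ankrd1, Egr1, Sphk1 and the receptor S1pr2 are given for context, and their relation to the LPA receptors was not tested.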
